A study of Arabidopsis thaliana with 4 samples.

Results

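Aquaporins are channel proteins of the major intrinsic protein family that let water, and in some members small uncharged solutes, cross a membrane. The genes described here are 32 aquaporin genes of Arabidopsis thaliana, listed by locus, out of 33664 features in the files. They comprise 5 PIP1 and 8 PIP2 genes, whose products lie in the plasma membrane, 8 TIP genes of the vacuolar membrane (tonoplast), 8 NIP genes and 3 SIP genes. The TIP3 genes of seeds and NIP4;2 were not among them.

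The study read poly(A) RNA from whole seedlings of ecotype Col-0, 9 days old and grown on MS plates in long days. There were 2 wild-type libraries and 2 labelled trm4b-4, an allele of TRM4B, which encodes an RNA 5-methylcytosine methyltransferase, and no other allele or treatment is named. The nature of the allele is not given in the sources used here. Nothing in the labels tells whether replicates were grown as separate cultures, so the p-values reflect variation among these 4 libraries, part of which may be technical. The mean chi-square per gene against counting error was 1.75 for the wild-type pair and 1.60 for the trm4b-4 pair. Between replicate 1 of each group it was 29.7. The p-values may therefore not measure variation between plants or cultures. A two-sided permutation test of 2 against 2 libraries could not give a p under 0.333.

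Levels are in FPKM, the fragments of a gene scaled to its length and to the library total, which was 21931590 to 26390263 fragments. TRM4B (AT2G22400) had 29.7 and 28.9 FPKM in wild type and 86.3 and 87.1 FPKM under the trm4b-4 label, so it was higher there (limma adjusted p = 2.4e-08). The label is therefore not checked by a loss of the transcript, and every direction below is for the libraries labelled trm4b-4 relative to wild type.

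PIP1 and PIP2 proteins assemble into tetramers, and PIP1 proteins reach the plasma membrane mainly together with PIP2 proteins. TIP proteins set the water permeability of the vacuole, the store that drives growth by cell expansion. NIP proteins carry boric acid, arsenite and other small solutes, and SIP proteins lie in the endoplasmic reticulum.

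Close members of the family have similar coding sequences, and long shared runs of bases would make their transcripts hard to tell apart. The sequences below are 120 bases of coding sequence from the RefSeq annotation of TAIR10.1 for 3 pairs, shown because the members of the first 2 pairs changed in opposite directions and those of the last in the same direction. Capitals mark the bases at which the members of a pair differ. PIP2B (PIP2;2, AT2G37170) and PIP2C (PIP2;3, AT2G37180) are shown over coding bases 1 to 120, with 12 differences.
PIP2B: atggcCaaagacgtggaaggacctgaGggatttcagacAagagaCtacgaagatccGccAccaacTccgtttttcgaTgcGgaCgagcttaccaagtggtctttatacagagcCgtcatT
PIP2C: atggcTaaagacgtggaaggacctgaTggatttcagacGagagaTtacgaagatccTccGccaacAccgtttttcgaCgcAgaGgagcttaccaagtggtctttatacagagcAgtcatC
PIP1C (PIP1;3, AT1G01620) is shown over coding bases 79 to 198 and PIP1E (PIP1;4, AT4G00430) over 82 to 201, with 21 differences.
PIP1C: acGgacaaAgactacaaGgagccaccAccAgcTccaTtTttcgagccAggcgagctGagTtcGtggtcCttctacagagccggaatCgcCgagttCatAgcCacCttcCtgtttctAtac
PIP1E: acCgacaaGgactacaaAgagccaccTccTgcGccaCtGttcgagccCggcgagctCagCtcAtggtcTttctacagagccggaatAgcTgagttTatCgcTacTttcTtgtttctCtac
NLM1 (NIP1;1, AT4G19030) is shown over coding bases 114 to 233 and NLM2 (NIP1;2, AT4G18910) over 105 to 224, with 14 differences.
NLM1: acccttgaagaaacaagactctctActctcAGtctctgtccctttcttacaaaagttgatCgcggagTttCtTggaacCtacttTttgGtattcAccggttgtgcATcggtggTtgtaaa
NLM2: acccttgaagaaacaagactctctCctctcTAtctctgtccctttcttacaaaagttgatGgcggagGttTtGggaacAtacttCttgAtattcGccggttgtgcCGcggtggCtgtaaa

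Over their whole coding sequences PIP2B and PIP2C were 94.8% identical, the highest value in the family. PIP1A (PIP1;1, AT3G61430) and PIP1B (PIP1;2, AT2G45960) followed with 87.6%, PIP1C and PIP1E had 85.1%, and NLM1 and NLM2 had 83.9%. PIP2B and PIP2C share an unbroken run of 242 bases, and 21.97% of the 50-base windows of PIP2B also occur in PIP2C. The other pairs among the 12 most similar shared no 50-base window. How the counting treated fragments that match both genes is not stated in the sources used here, so the levels of PIP2B and PIP2C are uncertain.

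Aquaporin transcripts were abundant in these seedlings, and many of the abundant ones were lower under the trm4b-4 label. Of 32 genes, 29 had fragments in at least 1 library and 27 passed the filter of 1 FPKM in at least 2 libraries. Of those 27, 10 fell and 7 rose past a limma adjusted p of 0.05, and 10 did not pass. Of all 19027 tested genes 15.1% fell and 19.2% rose, 34.3% in either direction, against 63.0% of the tested aquaporin genes. These shares are not matched for level. At 100 FPKM or more in wild type, 37.6% of all tested genes fell and 34.9% rose, and 13 of the 27 aquaporin genes lie there. Among the 29 genes with fragments, both trm4b-4 values lay below both wild-type values in 15 and above them in 7, and the groups overlapped in 7, beside 68.4% of all tested genes without overlap. The 29 include NIP2;1 and NIP7;1, which are under the filter, while the 68.4% covers only genes past it. That share is for either direction, and none was computed for each direction alone.

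The changes were modest in size, with log2 changes from -0.53 to 0.48, where the median absolute log2 change of all tested genes was 0.14. The median log2 change of the tested aquaporin genes was -0.08, and that of all tested genes was 0.03. In limma's test against a fold of 1.5, 0 of the 27 genes passed an adjusted p of 0.05, where 2.38% of all tested genes passed (1.74% as lower). At so low a share, 0 of 27 does not set the aquaporin genes apart. The count was also 0 at an unadjusted p under 0.05 and 0 with voom on recovered fragments. For these 2 counts the share of all genes was not computed. RNA came from whole seedlings, so fewer cells of a type and less RNA per cell cannot be told apart.

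The genes called lower lay mostly among the abundant ones. Of 13 aquaporin genes at 100 FPKM or more in wild type, 9 fell and 2 rose, where 37.6% of all tested genes at that level fell and 34.9% rose. Of the 14 tested genes below that level, 1 fell and 5 rose, beside 13.6% and 18.1% of all tested genes below it. This split at 100 FPKM was chosen after the values were seen and is a description. It counts calls, which depend on the number of fragments as well as on the change. TIP2;3 and TIP4;1, below that level, differed by -18.6% and -16.7% without a call. GAMMA-TIP (TIP1;1), above it, was called at -17.3%. Of the 27 tested genes at any level, 20 had a log2 change below 0 and 7 above 0.

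**Figure D1:**
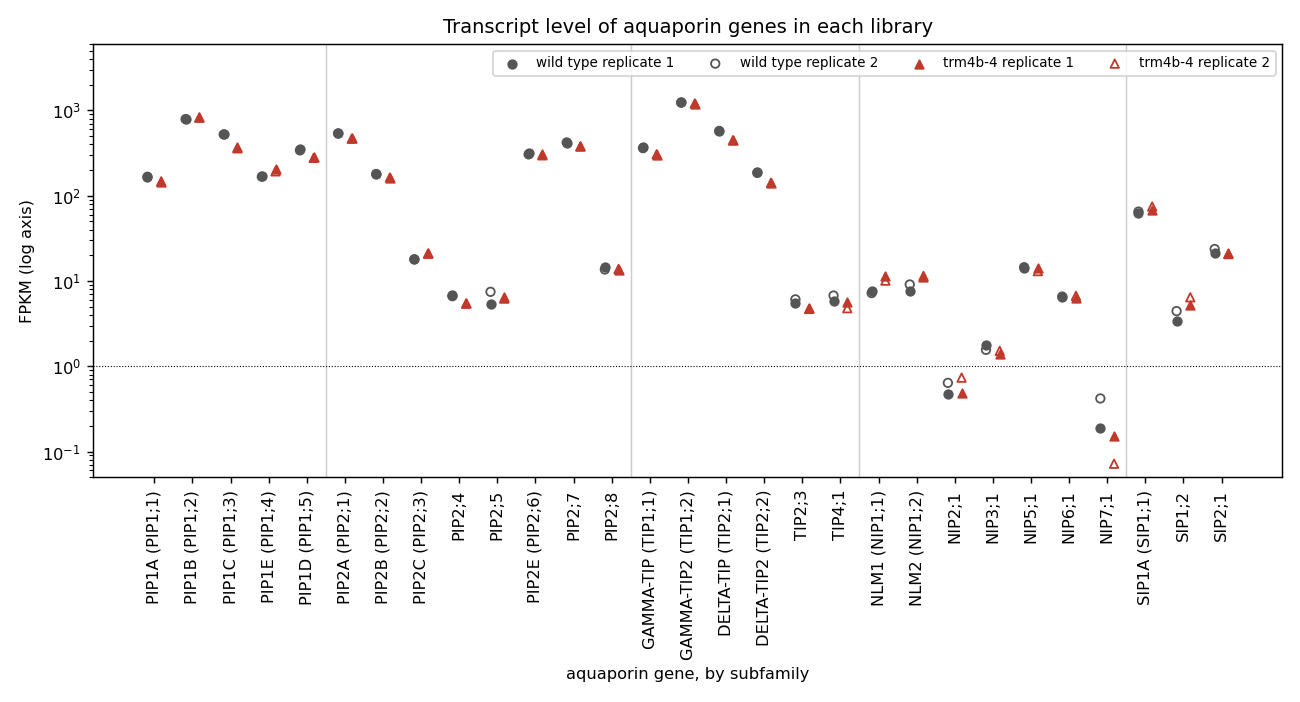
FPKM of the 29 aquaporin genes with fragments (log axis) in each of the 4 libraries, grouped by subfamily. Circles are wild-type and triangles trm4b-4 libraries, filled for replicate 1 and open for replicate 2, and the dotted line marks 1 FPKM. Levels span from 1248 FPKM for GAMMA-TIP2 to under 1 FPKM for NIP2;1 and NIP7;1, and replicates of abundant genes lie on top of each other.

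Summed over the 32 genes, the level was 6028 and 5970.4 FPKM in the wild-type libraries and 5447 and 5402 FPKM in those labelled trm4b-4. Both trm4b-4 sums were below both wild-type sums, with means of 5999 ± 40.8 and 5425 ± 31.5 FPKM (SD, n = 2 each), a difference of -9.58%. PIP1C alone made up 28.3% of the net difference, DELTA-TIP (TIP2;1, AT3G16240) 22.7% and PIP2A (PIP2;1, AT3G53420) 12.2%. The difference was -11.7% for the TIP sum, -8.87% for PIP1 and -8.92% for PIP2, while it was 13.4% for the NIP sum and 9.68% for SIP.

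The subfamilies held similar shares of the total in both groups. PIP1 genes held 33.3% in wild type and 33.6% under the trm4b-4 label, PIP2 genes 24.9% and 25.1%, and TIP genes 39.7% and 38.8%. NIP genes held 0.654% and 0.820%, and SIP genes 1.498% and 1.82%.

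**Figure D2:**
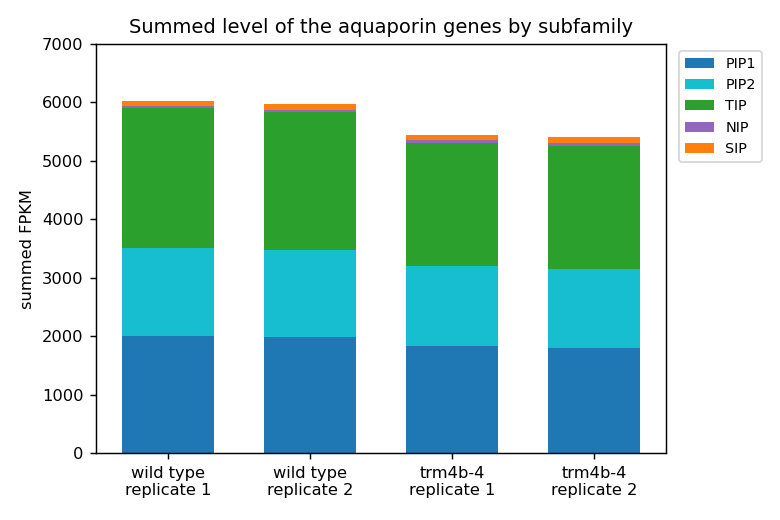
Summed FPKM of the aquaporin genes in each library (linear axis from 0), stacked by subfamily. The wild-type bars reach 6028 and 5970.4 FPKM and the trm4b-4 bars 5447 and 5402 FPKM, and NIP and SIP genes form thin bands at the top.

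All 5 PIP1 genes passed the test, 3 lower and 2 higher. All 5 lie at 100 FPKM or more in wild type, where 37.6% of all tested genes fell and 34.9% rose. PIP1C, whose gene lies at chr1:225665-227543 on the minus strand (TAIR10.1, 5 exons), had 532 and 522 FPKM in wild type, against 370.3 and 358.7 FPKM under the trm4b-4 label. The groups were far apart relative to their spread, and the difference in means of -30.8% was the largest fall among the tested aquaporin genes (log2 change -0.53, SE 0.023, limma adjusted p = 1.27e-06). These levels rest on 18174 and 16053 fragments in wild type and 10508 and 10709 in the other group.

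PIP1D (PIP1;5, AT4G23400, chr4:12220641-12222468) had 349 and 339.7 FPKM in wild type, against 285 and 277 FPKM. The groups did not overlap, and the gene fell by 0.29 on the log2 scale (SE 0.024, adjusted p = 4.94e-05). PIP1A had 164 and 167 FPKM in wild type, against 146 and 147 FPKM, also without overlap (log2 change -0.17, SE 0.024, adjusted p = 0.001). A fit with no mean-variance trend took the adjusted p of PIP1A to 0.0515, the highest over its 14 alternatives, of which the lowest was 6.52e-06.

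PIP1E (chr4:185285-187680, minus strand), reported to pass carbon dioxide and hydrogen peroxide as well as water, went the other way, with 169.7 and 167 FPKM in wild type and 203 and 193 FPKM under the trm4b-4 label. The groups did not overlap, and the rise was 17.7% (log2 change 0.23, SE 0.030, adjusted p = 0.000601). PIP1B, the most abundant PIP gene and one linked to water and carbon dioxide transport in leaves, had 795 and 789.5 FPKM in wild type and 837 and 823 FPKM in the other group. Its rise of 4.74% was the smallest change called in the family (log2 change 0.07, SE 0.018, adjusted p = 0.0214).

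The call of PIP1B was lost in 6 of 14 alternatives, among them median-of-ratios rescaling (log2 change 0.03, adjusted p = 0.184) and leaving out wild type replicate 1, wild type replicate 2 or trm4b-4 replicate 1 (adjusted p = 0.0552, 0.0868 and 0.114). Its adjusted p over the alternatives ran from 0.000488 to 0.304.

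Of 8 PIP2 genes 4 fell, 1 rose and 3 did not pass. Of all tested genes 15.1% fell (37.6% at 100 FPKM or more in wild type) and 19.2% rose (34.9% at that level). PIP2A (chr3:19803473-19805730, minus strand), a water channel of roots and guard cells that is opened by phosphorylation, had 544 and 536 FPKM in wild type, against 473 and 466 FPKM. The groups did not overlap (log2 change -0.20, SE 0.020, adjusted p = 0.000141). PIP2;7 (AT4G35100) had 416 and 421 FPKM in wild type, against 380.2 and 379 FPKM, again without overlap (log2 change -0.14, SE 0.019, adjusted p = 0.000863).

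PIP2;4 (AT5G60660), mainly a root gene, had 6.90 and 6.63 FPKM in wild type, against 5.55 and 5.43 FPKM, from 208 and 180 against 139 and 143 fragments (log2 change -0.26, SE 0.077, adjusted p = 0.0337). Its groups did not overlap, but the call was lost when any 1 of the 4 libraries was left out, with no filter and with voom, and the adjusted p over the alternatives ran from 0.0218 to 0.146. PIP2;7 lost its call only in the fit with no trend (adjusted p = 0.0769, against a lowest of 8.09e-07).

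PIP2B and PIP2C lie side by side on chromosome 2, at chr2:15613368-15615022 on the minus strand and chr2:15617635-15619155 on the plus strand. PIP2B had 181 and 179 FPKM in wild type, against 162 and 163 FPKM (log2 change -0.15, SE 0.023, adjusted p = 0.00177). PIP2C, first described as the desiccation-responsive gene RD28, had 18.3 and 17.9 FPKM in wild type, against 21.1 and 20.9 FPKM (log2 change 0.20, SE 0.047, adjusted p = 0.0124). Neither gene's groups overlapped, and the neighbours moved in opposite directions. The rise of PIP2C missed the threshold when wild type replicate 2 was left out (adjusted p = 0.0688, with a lowest of 0.00976 over the alternatives), and the fall of PIP2B missed it in the fit with no trend (0.0707, with a lowest of 5.47e-05).

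The PIP2 genes that did not pass included the abundant PIP2E (PIP2;6, AT2G39010), with 312 and 305 FPKM in wild type, against 305 and 297 FPKM. Its log2 change was -0.04, with a 95% interval from -0.09 to 0.02 (adjusted p = 0.278). PIP2;8 (AT2G16850) had 14.7 and 13.6 FPKM in wild type, against 13.3 and 13.8 FPKM (interval -0.20 to 0.08, adjusted p = 0.517). For PIP2;5 (AT3G54820), a gene known for its rise in the cold, the wild-type values of 5.43 and 7.46 FPKM lay on either side of the other values of 6.42 and 6.21 FPKM, and the interval from -0.30 to 0.28 allows a change in either direction.

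**Figure D3:**
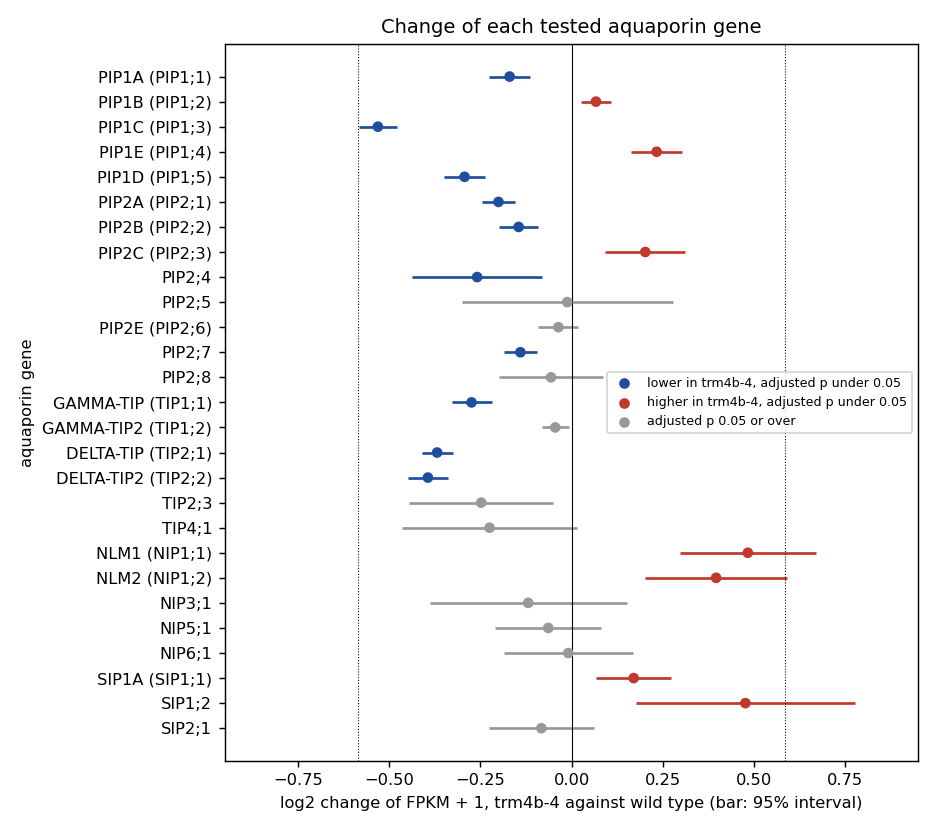
Log2 change of FPKM + 1 in the trm4b-4 libraries against wild type for the 27 tested aquaporin genes, with 95% intervals of the limma fit, coloured by call. Dotted lines mark a fold of 1.5 on this scale. Calls among the PIP1 and PIP2 genes lie on both sides of 0, the 3 among the TIP genes below it, and the 4 among the NIP and SIP genes above it.

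All 6 tested TIP genes had both trm4b-4 values below both wild-type values, and 3 of them passed the test. Of all tested genes 68.4% had no overlap in either direction. As lower, 15.1% of all tested genes passed, and 37.6% of those at 100 FPKM or more in wild type. DELTA-TIP (chr3:5505360-5507050), which conducts water and ammonia, had 579 and 574 FPKM in wild type, against 448 and 445 FPKM. The difference of -22.6% was far larger than the spread (log2 change -0.37, SE 0.018, adjusted p = 2.9e-06). The gene overlaps 2 annotated genes on the opposite strand, and whether the counting used strand is not stated in the sources used here. DELTA-TIP2 (TIP2;2, AT4G17340, chr4:9698940-9700472), its close relative, had 189 and 185 FPKM in wild type, against 142.5 and 141.5 FPKM, with no overlap (log2 change -0.39, SE 0.024, adjusted p = 9.49e-06).

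GAMMA-TIP (TIP1;1, AT2G36830, chr2:15445294-15446621), a marker of large vacuoles in growing cells, had 368 and 361 FPKM in wild type, against 296 and 306 FPKM. The groups did not overlap (log2 change -0.27, SE 0.024, adjusted p = 6.87e-05). GAMMA-TIP2 (TIP1;2, AT3G26520), its closest relative and the most abundant aquaporin transcript in these seedlings, had 1248 and 1234 FPKM in wild type, against 1201 and 1205 FPKM. These groups did not overlap either, but the log2 change of -0.04 did not pass (SE 0.016, adjusted p = 0.0644). It passed with median-of-ratios rescaling (adjusted p = 0.00779), with voom on recovered fragments and with a replicate block (0.0341), in a range from 0.00501 to 0.470 over the alternatives.

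The low TIP genes did not pass. TIP2;3 (AT5G47450), a root gene, had 5.55 and 6.08 FPKM in wild type, against 4.77 and 4.70 FPKM (log2 change -0.25, adjusted p = 0.0555). It passed in 3 of 14 alternatives, over which the adjusted p ran from 0.0372 to 0.252. TIP4;1 (AT2G25810) had 5.82 and 6.74 FPKM in wild type, against 5.67 and 4.80 FPKM (interval -0.46 to 0.01, adjusted p = 0.134). TIP1;3 (AT4G01470) and TIP5;1 (AT3G47440), known from pollen, were at 0 in all 4 libraries, which allows up to 0.124 and 0.137 FPKM in the shallowest library (3 fragments, counting error only).

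Of 8 NIP genes 5 were tested, of which 2 rose and 3 did not pass. Among all tested genes under 100 FPKM in wild type, 18.1% rose. NLM1 (chr4:10421521-10423508, minus strand) had 7.66 and 7.21 FPKM in wild type, against 11.5 and 10.097 FPKM, from 237 and 201 against 296 and 273 fragments. The groups did not overlap, and the ratio of means was 1.45 (log2 change 0.48, SE 0.081, adjusted p = 0.00247). NLM2 (chr4:10366044-10368510), a root gene linked to aluminium transport, had 7.68 and 9.10 FPKM in wild type, against 11.2 and 11.4 FPKM. Here too the groups did not overlap, and the ratio was 1.35 (log2 change 0.40, SE 0.084, adjusted p = 0.00783). Both calls held in all 14 alternatives.

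The boric acid channel genes did not pass. NIP5;1 (AT4G10380), which takes up boric acid in roots, had 14.2 and 14.5 FPKM in wild type, against 14.3 and 13.1 FPKM (interval -0.21 to 0.08, adjusted p = 0.472). NIP6;1 (AT1G80760), which distributes it in shoots, had 6.50 and 6.56 FPKM in wild type, against 6.28 and 6.69 FPKM (interval -0.19 to 0.17). NIP3;1 (AT1G31885), linked to arsenite transport, had 1.79 and 1.56 FPKM in wild type, against 1.41 and 1.52 FPKM (adjusted p = 0.473).

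Of the NIP genes under the filter, NIP2;1 (AT2G34390), a lactic acid channel gene induced when oxygen is low, had 0.474 and 0.639 FPKM in wild type, against 0.489 and 0.736 FPKM. NIP7;1 (AT3G06100), known from anthers, had 0.189 and 0.419 FPKM in wild type, against 0.151 and 0.072 FPKM, and with no filter its adjusted p was 0.188. NIP4;1 (AT5G37810), known from pollen, was at 0 in all libraries, which allows up to 0.116 FPKM in the shallowest.

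Of 3 SIP genes 2 rose and 1 did not pass, beside 18.1% of all tested genes under 100 FPKM in wild type that rose. SIP1A (SIP1;1, AT3G04090) had 62.2 and 65.02 FPKM in wild type, against 68.8 and 74.6 FPKM (log2 change 0.17, SE 0.044, adjusted p = 0.0195). SIP1;2 (AT5G18290) had 3.40 and 4.43 FPKM in wild type, against 5.22 and 6.44 FPKM, from 98 and 115 against 125 and 162 fragments (ratio of means 1.49, log2 change 0.48, SE 0.130, adjusted p = 0.0233). Neither gene's groups overlapped. Both calls were lost with no filter, in the fit with no trend, and when wild type replicate 1 or trm4b-4 replicate 2 was left out, which gave 0.14 and 0.11 for SIP1A and 0.32 and 0.35 for SIP1;2 on the log2 scale. Over the alternatives the adjusted p ran from 0.00167 to 0.111 for SIP1A and from 0.00337 to 0.121 for SIP1;2. SIP2;1 (AT3G56950) had 21.0 and 23.7 FPKM in wild type, against 21.4 and 20.7 FPKM (interval -0.23 to 0.06). SIP1;2 and SIP2;1 overlap annotated genes on the opposite strand, as do NIP2;1, NIP6;1 and TIP5;1.

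The balance between close relatives can be read within a library, where the scaling of the library has no part. The ratio of PIP1C to PIP1E was 3.14 and 3.13 in the wild-type libraries, against 1.82 and 1.86. That of PIP2B to PIP2C was 9.87 and 10.01 in wild type, against 7.70 and 7.81. The ratio of PIP1B to PIP1C, the most abundant PIP1 genes, was 1.49 and 1.51 in wild type, against 2.26 and 2.29. In these 3 pairs the groups were apart by much more than their spread. The ratios themselves were not tested.

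Among other pairs of the 12 most similar, PIP2A to PIP2C was 29.7 and 29.9 in wild type, against 22.5 and 22.3, and PIP1A to PIP1C was 0.308 and 0.319, against 0.395 and 0.410. GAMMA-TIP to GAMMA-TIP2 was 0.295 and 0.292 in wild type, against 0.247 and 0.254, and PIP1A to PIP1B was 0.206 and 0.211, against 0.175 and 0.179. For NLM1 to NLM2 (0.998 and 0.793, against 1.03 and 0.883) and PIP2;7 to PIP2;8 (28.3 and 30.9, against 28.5 and 27.4) the groups overlapped. The DELTA-TIP2 to TIP2;3 ratio was 34.0 and 30.4 in wild type, against 29.9 and 30.1.

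**Figure D4:**
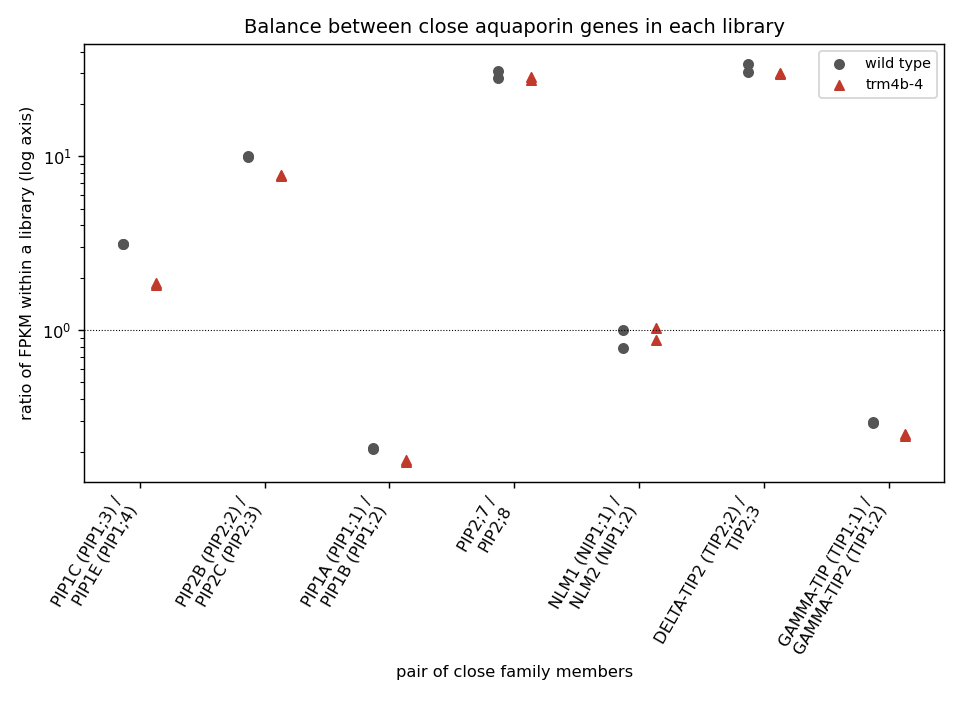
Ratio of FPKM between members of 7 pairs of close aquaporin genes within each library (log axis), with circles for wild type and triangles for trm4b-4. The ratio of PIP1C to PIP1E is 3.14 and 3.13 in wild type and 1.82 and 1.86 in trm4b-4 libraries, that of PIP2B to PIP2C 9.87 and 10.01 against 7.70 and 7.81, and the groups overlap for NLM1 to NLM2 and PIP2;7 to PIP2;8.

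Of the 29 genes with fragments, 15 had another rank by mean level under the trm4b-4 label, by at most 3 places. In wild type GAMMA-TIP2 was highest, followed by PIP1B, DELTA-TIP, PIP2A and PIP1C, and these 5 genes held 61.3% of the summed FPKM (61.1% under the trm4b-4 label). Neighbours in this order did not overlap between the wild-type libraries down to NIP5;1, at rank 17, which overlapped PIP2;8. Further down, the ranges of neighbours overlapped for NIP6;1 and PIP2;5, for PIP2;5 and TIP4;1, and for TIP4;1 and TIP2;3. PIP2;4, at rank 21, overlapped PIP2;5 and TIP4;1. PIP2;5 also overlapped NLM1, at rank 20, and TIP2;3, and NIP6;1 overlapped TIP4;1. The genes that differed by 3 places were DELTA-TIP2 (rank 10 in wild type, 13 under the trm4b-4 label), PIP2;4 (21 and 24) and SIP1;2 (26 and 23).

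The 250 bases upstream of the annotated gene start (RefSeq, TAIR10.1) were searched on both strands for ACGTG, the core of abscisic acid response elements, CCGAC, the core of the dehydration-responsive element, and AAAATATCT, the evening element of clock genes. ACGTG was found upstream of 3 of 32 aquaporin genes (GAMMA-TIP, TIP5;1 and SIP1A), or 9.38%, and of 22.9% of 27431 genes with such a stretch. CCGAC was found for 4 of 32 (PIP1C, PIP2;5, GAMMA-TIP and GAMMA-TIP2), or 12.5%, against 11.97% of all, and AAAATATCT for 0 of 32 against 2.36%. Genes with a match include SIP1A, which rose, TIP5;1, at 0 in all libraries, and PIP2;5 and GAMMA-TIP2, which had no call. The upstream stretches of PIP1C and GAMMA-TIP, which fell and hold such letters, are shown with each match in capitals. That of PIP1C is chr1:227544-227793 on the minus strand, with 1 CCGAC read on the opposite strand.
PIP1C: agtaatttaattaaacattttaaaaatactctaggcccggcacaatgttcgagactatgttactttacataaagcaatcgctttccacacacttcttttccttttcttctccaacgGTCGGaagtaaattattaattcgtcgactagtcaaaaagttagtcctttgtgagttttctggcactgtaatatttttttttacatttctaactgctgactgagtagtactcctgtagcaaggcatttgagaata
That of GAMMA-TIP is chr2:15445044-15445293 on the plus strand, with 1 ACGTG and 1 CCGAC, both on the opposite strand.
GAMMA-TIP: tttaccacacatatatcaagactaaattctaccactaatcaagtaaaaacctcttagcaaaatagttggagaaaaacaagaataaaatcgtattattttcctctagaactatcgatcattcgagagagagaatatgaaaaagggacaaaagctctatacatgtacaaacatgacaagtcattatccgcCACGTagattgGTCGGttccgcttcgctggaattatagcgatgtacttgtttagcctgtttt
A match is a description of letters and not a site of binding.

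Genes that act on aquaporin proteins were called at a share near that of all tested genes. Of 10 tested genes for aquaporin traffic and regulation 3 fell and 1, TSPO, rose (15.1% and 19.2% of all tested genes), with a median log2 change of -0.07. SYP121, a syntaxin that delivers PIP2 proteins to the plasma membrane, had 33.7 and 32.3 FPKM in wild type, against 13.9 and 16.3 FPKM (log2 change -1.08, adjusted p = 1.36e-05). RMA2 and RMA1, of a ubiquitin ligase family of the endoplasmic reticulum that is known to hold back PIP2 proteins, fell by 0.35 and 0.32 on the log2 scale (adjusted p = 0.000427 and 0.00373). RMA3, of the same family, did not pass (log2 change -0.10, adjusted p = 0.247).

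TSPO, which directs PIP2;7 to degradation and is induced by abscisic acid, had 1.09 and 0.765 FPKM in wild type, against 4.80 and 4.77 FPKM (log2 change 1.59). It reached the filter of 1 FPKM in at least 2 libraries through its trm4b-4 values, so the filter favoured a rise. With no filter the adjusted p of TSPO was 0.00118. SYP61, another syntaxin, and the kinase genes OST1, SIRK1 and BAK1 did not pass, with log2 changes from -0.08 to 0.01.

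Of 10 tested proton pump genes, which energise the membranes that hold PIP and TIP proteins, 2 rose and 1 fell, beside 19.2% and 15.1% of all tested genes. AHA3 and AVP1 rose by 0.18 and 0.07 on the log2 scale (adjusted p = 0.00995 and 0.0243), and VHA-B1 fell by 0.16 on the log2 scale (adjusted p = 0.0017). Their summed level was 1882 to 1886 FPKM in wild type, against 1888 to 1916 FPKM. The rise of AVP1 was lost in 6 of 14 alternatives, including leaving out any 1 of the 4 libraries (adjusted p from 0.000204 to 0.289 over all alternatives). That of AHA3 was lost when wild type replicate 1 was left out (0.0683) and in the fit with no trend (0.0688, against a lowest of 2.69e-05), as was the fall of VHA-B1 in that fit (0.0551, against a lowest of 5.48e-06).

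Among 4 tested boron exporter genes, partners of the boric acid channels, BOR2 rose by 0.17 on the log2 scale (adjusted p = 0.0311), BOR4 was higher by 0.44 and 2 did not pass. Of all tested genes 19.2% rose. Both wild-type values of BOR4 were below 1 FPKM, so it too reached the filter through its trm4b-4 values, and the filter favoured a rise. BOR4 had an adjusted p of 0.0271, and of 0.0133 with no filter. Its call was lost when any 1 of the 4 libraries was left out (adjusted p from 0.00123 to 0.113 over its alternatives). BOR2 was lost in 6 of 14 alternatives, among them leaving out wild type replicate 1, wild type replicate 2 or trm4b-4 replicate 1, with adjusted p from 0.00179 to 0.158.

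Of 13 tested genes of water deficit and abscisic acid responses 5 rose and 3 fell, beside 19.2% and 15.1% of all tested genes. The dehydrin gene RAB18 and the desiccation gene RD29B rose by 1.28 and 1.13 on the log2 scale (adjusted p = 2.38e-07 and 2.58e-05), and the dehydrin gene COR47 and the transcription factor gene RD26 fell (log2 change -0.88 and -1.66, adjusted p = 3.26e-08 and 5.85e-07).

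Organ markers were read beside these results. Of 11 tested root markers PRP3 rose by 0.50 and PER64 and PYK10 fell by 0.32 and 0.27 on the log2 scale, beside 34.3% of all tested genes called in either direction, and none of the 12 listed was at 0. Their summed level, most of it PYK10, was 1748 to 1765 FPKM in wild type, against 1467.5 to 1469 FPKM. Of 10 photosynthesis markers of the shoot 4 rose, among them LHCB2.1 and LHCB6 by 0.63 and 0.32, and 5 fell, among them CA1 and RCA by 0.35 and 0.21 on the log2 scale. All 10 lie above 100 FPKM in wild type. At 100 FPKM or more 34.9% of all tested genes rose and 37.6% fell. None of the 10 was at 0, and their sum was 26582 to 26667 FPKM in wild type, against 26575 to 26697 FPKM.

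Of 6 vascular markers SUC2 fell by 0.10 on the log2 scale (adjusted p = 0.0486), where 15.1% of all tested genes fell. None of the 6 was at 0, and the sum was 114 to 116 FPKM in wild type, against 108 to 113 FPKM. The call of SUC2 was lost in 8 of 14 alternatives, including leaving out wild type replicate 1 or either trm4b-4 library (adjusted p from 0.011 to 0.260), and that of PER64 in 3, including leaving out replicate 1 of either group (0.00731 to 0.107). The part of organ proportions in the aquaporin changes was not tested.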

How the data were processed

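Poly(A) RNA of 4 libraries was prepared with a directional kit, per the labels' protocols. The submitters' processing notes list Cufflinks 2.1.1, Cuffdiff, HTSeq 0.6.1 and TopHat2 2.0.12 and the genome build TAIR10, with no role for each. The authors deposited 1 value per gene and library, read here as FPKM because the values are whole fragments over a gene length and a library total. Library totals were the commonest whole value that the lowest values imply, and fragments were recovered from them. For PIP2E, PIP2;7, NIP3;1 and NIP7;1 the gene length is known only up to a whole factor, so their fragments are not printed.

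Tests used limma 3.58.1 in R 4.3.3, two-sided, on log2(FPKM + 1), which understates changes of low genes, with a mean-variance trend. They ran over 19027 genes (1 FPKM or above in 2 or more of the libraries), and p-values were adjusted over all of them by Benjamini and Hochberg, with a threshold of 0.05. The procedure was tested on simulated data. Intervals are limma 95% intervals.

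The members and lists were chosen with earlier results of these data known. Named genes were the 32 aquaporin genes, TRM4B and, from each list, up to 2 genes per direction with the smallest adjusted p. RMA1, RMA3, SYP61, OST1, SIRK1 and BAK1 fall outside this rule and were named after their values were seen. List genes whose symbol the annotation did not carry at the given locus were dropped (5 of 72, leaving 67). Names, positions and sequences came from RefSeq TAIR10.1, matched by locus for all 32 genes. Coding sequences were aligned with Biopython 1.88. Recovered fragments and the voom fit on them were added after the data were seen.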

Additional observations from a re-analysis of the deposited data

How the results depend on the processing

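Calls of 9 of the 17 aquaporin genes (PIP1C, PIP1D, PIP1E, PIP2A, GAMMA-TIP, DELTA-TIP, DELTA-TIP2, NLM1 and NLM2) kept direction and threshold in all 14 alternatives, which were pseudocounts of 0.1 and 0.01, no filter, a filter of 5 FPKM, median-of-ratios, quantile and nuclear-only scaling, no mean-variance trend, a replicate block, voom and each library left out. The number of aquaporin genes that rose was 7. It was 4 with no filter, 4 in the fit with no mean-variance trend, and 4 to 6 with a library left out, the lowest when wild type replicate 1 was left out, and the cause was not tested. The number that fell was 10, and 8 to 12 over the alternatives. In none of them did an aquaporin gene pass a fold of 1.5. With a library left out, the group with 1 library is assumed to vary like the other.

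Genes with no call changed sign in these alternatives. PIP2;5 had 0.19 without wild type replicate 2, 0.0089 without trm4b-4 replicate 2 and 0.00077 with voom, in a range from -0.21 to 0.19 with a library left out. NIP6;1 ranged from -0.048 to 0.030, and SIP2;1 from -0.17 to 0.00011.

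With the replicate number as a block, 7 aquaporin genes rose and 11 fell, GAMMA-TIP2 being the addition, and 6769 genes were called against 6530. The numbers are not stated to pair libraries, and deviations of same-numbered libraries correlated at -0.043 over 19027 genes. This does not settle whether same-numbered libraries were handled together, as a batch that touches few genes would not move it.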

Other observations

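Genes of the same family outside the 32 were low in wild type. TIP3;1, a tonoplast channel gene of seeds, had 0.354 and 0.250 FPKM in wild type, against 3.29 and 2.68 FPKM under the trm4b-4 label (log2 change 1.61, limma adjusted p = 4.95e-05, and 0.000997 with no filter). BETA-TIP (AT1G17810), the other seed gene of that kind, had 1.00 and 0.681 FPKM in wild type, against 6.10 and 6.76 FPKM (log2 change 2.02, adjusted p = 8.44e-06, and 0.000727 with no filter), and was named after its values were seen. Both genes passed the filter only because of the trm4b-4 libraries, so their direction there was largely fixed by it. NIP4;2, known from pollen and root, had 0.311 and 0.395 FPKM in wild type, against 0.107 and 0.204 FPKM, and was under the filter (adjusted p = 0.0833 with no filter).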
